A study of Mus musculus with 10 samples.

Results

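The integrated stress response genes, the amino acid synthesis and transport genes and the cytosolic aminoacyl-tRNA synthetases were followed in Neuro2a cells that carried a repressor directed at SCN9A. The set holds 38 named genes of the 55401 gene identifiers listed, matched by symbol to the GENCODE M21 annotation of the mouse build GRCm38. They fall into 15 transcription factors and feedback genes of the stress response, 8 enzymes of amino acid and one-carbon synthesis, 3 genes of amino acid transport and 12 synthetases. After transfection with either repressor, 37 of the 38 genes were abundant enough to be tested. With the zinc finger 6 of the 37 genes rose and 0 fell, where 4.72% of all tested genes passed (1.95% higher and 2.78% lower). With dCas9 0 of the 37 passed, where 0.0410% of all tested genes did. The genes were chosen with earlier results of these data known, so these shares are a description only.

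Neuro2a is a mouse neuroblastoma line, labelled wild-type here. All groups were transfected with Lipofectamine 2000 and 0.5 μg of each plasmid, had their medium changed after 24 h, and were kept for 72 h. One arm compared dCas9-SCN9A (3 libraries), a Cas9 that no longer cuts DNA directed at SCN9A, with dCas9-empty (3 libraries). The other arm compared ZF-SCN9A (2 libraries), an engineered zinc-finger protein directed at SCN9A, with mCherry (2 libraries), a red fluorescent protein that was taken here as its control. The sources used here do not give the share of cells that took up plasmid, or the effector domain of either repressor. No label says whether the replicates were separate cultures, so the p-values cover the variation among these libraries only, and that variation could be technical. In these bulk libraries, a change in the number of expressing cells and a change in RNA per cell cannot be told apart.

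The integrated stress response starts when kinases phosphorylate the translation factor eIF2, which lowers protein synthesis in general while the messenger RNA of Atf4 is translated more. ATF4 protein, paired with C/EBP family members, binds composite DNA elements and switches on genes that make, import and load amino acids onto transfer RNA, together with the stress regulators Ddit3, Atf3 and Trib3. Because ATF4 is controlled largely at translation, messenger RNA counts show the targets more directly than the regulator. In tumour cell lines this pathway is known to keep amino acid supply and protein synthesis in balance.

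The element that ATF4 and C/EBP proteins share was looked for first. The set was named for the ATF4 response, so its share of genes with this element is not independent of the selection. The motif TGATGNAA was searched on both strands of RefSeq promoter windows in GRCm38.p6, from 250 bases before to 50 bases after the transcription start. Of the 38 genes, 32 had a window and 13 of these (40.6%) held the motif. It was held by 4.51% of the 27025 genes with such a window, and by 3.97% of all 32851 windows. A match is a description of the letters and not a binding site. The promoters of the 3 motif-holding genes that rose with the zinc finger are shown from 250 bases before to 30 bases after the start, 5′ to 3′ along the gene, with the motif (or its reverse complement) in capitals. The stretch of Trib3 lies at chr2:152344031-152344310, that of Atf3 at chr1:191183304-191183583 and that of Pycr1 at chr11:120643719-120643998, all on the minus strand.
Trib3: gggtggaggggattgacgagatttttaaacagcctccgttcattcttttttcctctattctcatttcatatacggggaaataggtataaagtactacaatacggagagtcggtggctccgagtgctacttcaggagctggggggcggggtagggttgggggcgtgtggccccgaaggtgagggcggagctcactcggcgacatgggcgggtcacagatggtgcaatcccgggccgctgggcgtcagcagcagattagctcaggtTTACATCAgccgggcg
Atf3: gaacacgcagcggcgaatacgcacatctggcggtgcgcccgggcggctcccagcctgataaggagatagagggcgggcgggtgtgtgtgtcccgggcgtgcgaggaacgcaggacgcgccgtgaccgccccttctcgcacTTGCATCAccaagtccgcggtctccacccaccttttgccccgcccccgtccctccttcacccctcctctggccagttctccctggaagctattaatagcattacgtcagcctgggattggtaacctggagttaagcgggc
Pycr1: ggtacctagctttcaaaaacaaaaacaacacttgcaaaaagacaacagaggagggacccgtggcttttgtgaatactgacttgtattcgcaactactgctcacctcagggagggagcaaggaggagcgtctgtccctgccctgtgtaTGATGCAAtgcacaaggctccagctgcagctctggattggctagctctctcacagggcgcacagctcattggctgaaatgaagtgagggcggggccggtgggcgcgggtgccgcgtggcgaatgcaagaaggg
For comparison, 60 bases around the motif are shown from 3 well-known ATF4 targets that did not pass the test with either repressor. The stretch of Asns lies at chr6:7693199-7693258 and that of Slc7a11 at chr3:50443637-50443696, both on the minus strand, and that of Chac1 at chr2:119351023-119351082 on the plus strand. Slc7a11 held the motif on both strands within this stretch.
Asns: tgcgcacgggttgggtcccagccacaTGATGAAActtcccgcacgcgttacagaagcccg
Slc7a11: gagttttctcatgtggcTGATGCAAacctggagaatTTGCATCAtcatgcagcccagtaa
Chac1: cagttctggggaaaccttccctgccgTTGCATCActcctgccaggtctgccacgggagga

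The motif stood at different distances from the start. It lay at -110 to -103 in both Atf3 and Nupr1, at -103 to -96 in Pycr1, at -23 to -16 in Asns and at 15 to 22, inside the transcript, in Trib3. By role, it was held by 5 of the 14 stress response genes with a window (Atf3, Trib3, Chac1, Nupr1 and Vldlr), 2 of 8 synthesis genes (Asns and Pycr1), 1 of 2 transport genes (Slc7a11) and 5 of 8 synthetases (Aars, Gars, Iars, Tars and Yars). With the zinc finger 3 of the 12 tested genes with the motif rose (median log2 fold change 0.07, range -0.10 to 0.51). Of the 19 without it 2 rose (median 0.09, range -0.01 to 0.42). Among all 12899 tested genes 1.95% were called higher, at a median of 0.00. The sixth gene that rose, Eif4ebp1, was among the 6 genes with no window, with Slc7a5, Cars, Nars, Wars and Lars.

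**Figure D1:**
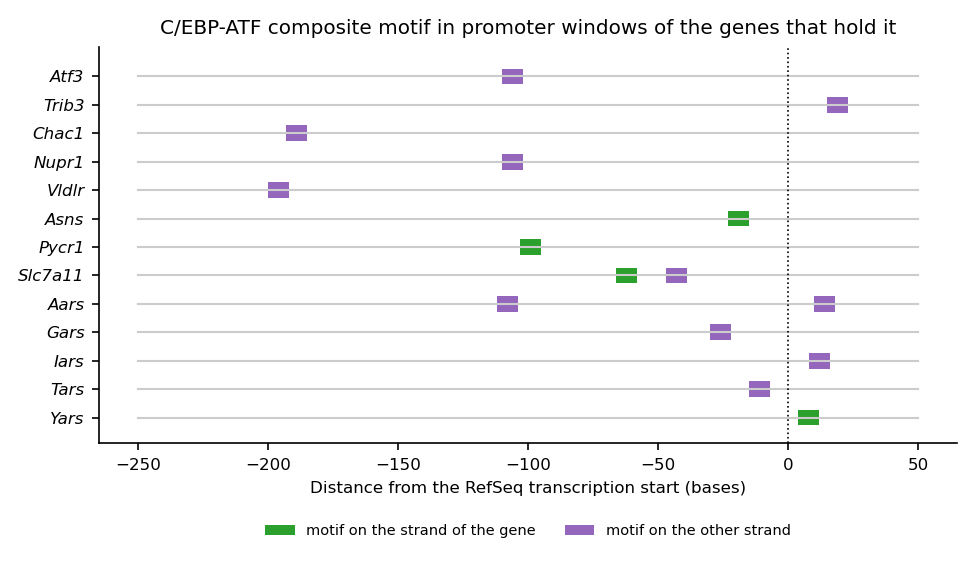
Position of the C/EBP-ATF composite motif in the promoter windows of the 13 genes that hold it, as distance in bases from the RefSeq transcription start (dotted line); grey lines span the window searched, green marks the strand of the gene and purple the other strand. Aars and Slc7a11 hold it at 2 positions each, and the motif of Trib3 lies after the start.

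The libraries held 15.4 M to 19.0 M gene counts (M stands for 1000000) in the dCas9 arm and 4.41 M to 7.48 M in the zinc-finger arm. Plasmid reads followed the labels: reads of the zinc finger stood at 39185 and 40449 per M gene counts in ZF-SCN9A and at 5.31 or less in mCherry. The counts list 2 dCas9 plasmid entries, dCCas9 and dNCas9, and both were unequal between the groups. Reads of dCCas9 ran from 7326 to 8764 per M gene counts in dCas9-empty and from 11202 to 12986 in dCas9-SCN9A, and those of dNCas9 from 4561 to 4949 and from 3447 to 4054. The part of this gap in the dCas9 comparison was not tested. The share of reads in entries that name no gene, which does not show where these reads lay, was higher with both repressors. It was 27.3% to 28.2% in ZF-SCN9A against 25.8% to 25.9% in mCherry. In the dCas9 arm it was 27.6% to 28.2% in dCas9-SCN9A against 25.0% to 27.1% in dCas9-empty. The groups did not overlap in either arm, and the part of this in the results was not tested. Scn9a itself fell with dCas9 from 75.3, 81.1 and 78.3 to 31.0, 30.9 and 28.2 CPM (counts scaled to a library total of 1000000, with TMM factors of the arm). In the zinc-finger arm it fell from 62.4 and 56.3 to 18.8 and 15.7 CPM. Markers of noradrenergic neuroblasts, among them Hand2 and Gata2, were abundant, with 14 genes summing to between 3268 and 4740 CPM per library. Lists of fibroblast, glial, immune and endothelial markers summed to at most 36.7, 38.5, 2.69 and 24.9 CPM. Of the 5 endothelial markers, Cldn5 and Kdr had 0 reads in the zinc-finger arm, while Pecam1 read 12.8 to 20.3 CPM, Tek 0.81 to 3.67 CPM and Cdh5 0.32 to 1.53 CPM. In the dCas9 arm the collagen gene Col3a1 stood at 3.77 and 4.92 CPM in replicate 1 of both groups and at 0.05 CPM or less in the others, and its part in any result was not tested.

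Atf4, the central transcription factor of the response, did not pass the test with either repressor. Its levels were 760.3, 739 and 753 CPM in dCas9-empty and 753, 776 and 806 CPM in dCas9-SCN9A. The mCherry libraries read 976 and 1027 CPM and the ZF-SCN9A libraries 1021 and 985 CPM. The groups overlapped in both arms, with log2 fold changes of 0.05 (95% interval -0.06 to 0.17) with dCas9 and 0.00 (-0.12 to 0.12) with the zinc finger. Ddit3, which encodes the pro-apoptotic factor CHOP, read 57.6, 62.1 and 65.5 CPM in dCas9-empty against 61.4, 72.2 and 60.7 CPM in dCas9-SCN9A. It read 95.1 and 106 CPM with mCherry against 98.0 and 102 CPM with ZF-SCN9A. These groups overlapped too, with log2 fold changes of 0.07 and -0.01, and the intervals reached 0.23 and 0.16 at most. Exons of Mars and of a short second Ddit3 locus overlap 3.97% and 6.13% of the exon bases of Ddit3.

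Trib3, a pseudokinase that binds ATF4 and damps its activity, gave the smallest p of the set. The mCherry libraries read 148 and 159.9 CPM and the ZF-SCN9A libraries 201 and 217 CPM. Both ZF-SCN9A libraries lay above both controls, and the mean rose from 154 ± 8.07 to 209 ± 11.1 CPM (SD, n = 2 each). Trib3 thus changed by 0.43 ± 0.07 on the log2 scale (SE), with an adjusted p = 5.54e-07 in the quasi-likelihood test of edgeR (Benjamini-Hochberg adjustment over all tested genes). In the dCas9 arm the control libraries read 110.4, 111 and 108 CPM and the dCas9-SCN9A libraries 108, 111 and 111 CPM. All 6 lay between 108 and 111 CPM, with a log2 fold change of 0.00 (95% interval -0.11 to 0.11).

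The arms differed in control plasmid and library depth as well as in repressor, and these cannot be told apart in a difference between arms. The difference between both changes of Trib3, dCas9 minus zinc finger, was -0.43 ± 0.09 (SE, 95% interval -0.61 to -0.25). Its adjusted p was 0.00762 by edgeR over all 10 libraries. Trib3 was the 1 gene of the 37 to pass this test, which 0.907% of 15766 genes passed. DESeq2 and limma-voom called the same single member, where they called 1.43% and 0.710% of all genes. Its difference no longer passed without mCherry replicate 1 (-0.38, adjusted p = 0.111) or ZF-SCN9A replicate 2 (-0.38, adjusted p = 0.105). Its rise with the zinc finger was 0.38 to 0.49 on the log2 scale without each of the 4 libraries. All of these fits left 1 library in a group.

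Atf3, a stress-induced transcription factor of the bZIP class that includes ATF4, had the largest log2 fold change of the set in both arms. It rose from 26.8 and 30.5 CPM with mCherry to 41.0 and 40.6 CPM with ZF-SCN9A, by 0.51 ± 0.13 (SE, adjusted p = 0.00545 by edgeR). In the dCas9 arm it read 10.6, 10.3 and 10.4 CPM in the controls and 13.4, 13.6 and 17.6 CPM in dCas9-SCN9A. There too the groups did not overlap, and the log2 fold change was 0.51 ± 0.12 (SE), but its adjusted p of 0.156 by edgeR did not pass. Its dCas9 change passed in 4 of 9 other settings, with adjusted p from 0.0056 to 0.0475 by edgeR. The highest came from 1 fit of all 10 libraries, where 0.184% of genes passed. The others were the unfiltered fit and the replicate block, with or without exon length correction. That block alone took the dCas9 calls among all genes from 6 to 262. Leaving out any of the 6 dCas9 libraries gave 0.38 to 0.59, and Atf3 did not pass (adjusted p from 0.0836 to 0.73 by edgeR). In the main fits both arms gave nearly the same value, and their difference was 0.01 (95% interval -0.34 to 0.35). Atf3 was the 1 member of 37 whose dCas9 groups did not overlap, against 15.6% of all genes tested.

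Ddit4, an inhibitor of the growth regulator mTORC1 that is also induced by hypoxia, rose with the zinc finger from 323 and 389 CPM to 456 and 406 CPM. The groups did not overlap, though the higher control lay close to the lower ZF-SCN9A library, and the log2 fold change was 0.28 ± 0.06 (SE, adjusted p = 0.00105 by edgeR). With dCas9 it read 512, 535 and 458 CPM in the controls against 493, 521 and 436 CPM, with overlapping groups. Ddit4 lies on chromosome 10 at chr10:59949669-59951834.

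Eif4ebp1, at chr8:27260329-27276674, encodes a repressor of cap-dependent translation and rose from 272 and 280.2 CPM with mCherry to 329 and 329 CPM with ZF-SCN9A. Its change of 0.25 ± 0.07 (log2, SE, adjusted p = 0.00491 by edgeR) came with replicates that lay close together in both groups. In the dCas9 arm the levels of 288, 277 and 262 CPM in the controls overlapped those of 276, 298.5 and 289 CPM in dCas9-SCN9A.

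Stc2 (chr11:31357307-31370074), a secreted glycoprotein induced by stress of the endoplasmic reticulum and by hypoxia, rose from 47.5 and 52.4 CPM with mCherry to 68.9 and 64.7 CPM with ZF-SCN9A (0.42 ± 0.11, SE, adjusted p = 0.00462 by edgeR). With dCas9 it read 43.1, 45.1 and 44.7 CPM in the controls and 45.5, 44.0 and 38.6 CPM in dCas9-SCN9A, which overlapped. The difference of both changes was -0.47 ± 0.13 (SE), with an adjusted p of 0.0694 by edgeR that did not pass.

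**Figure D2:**
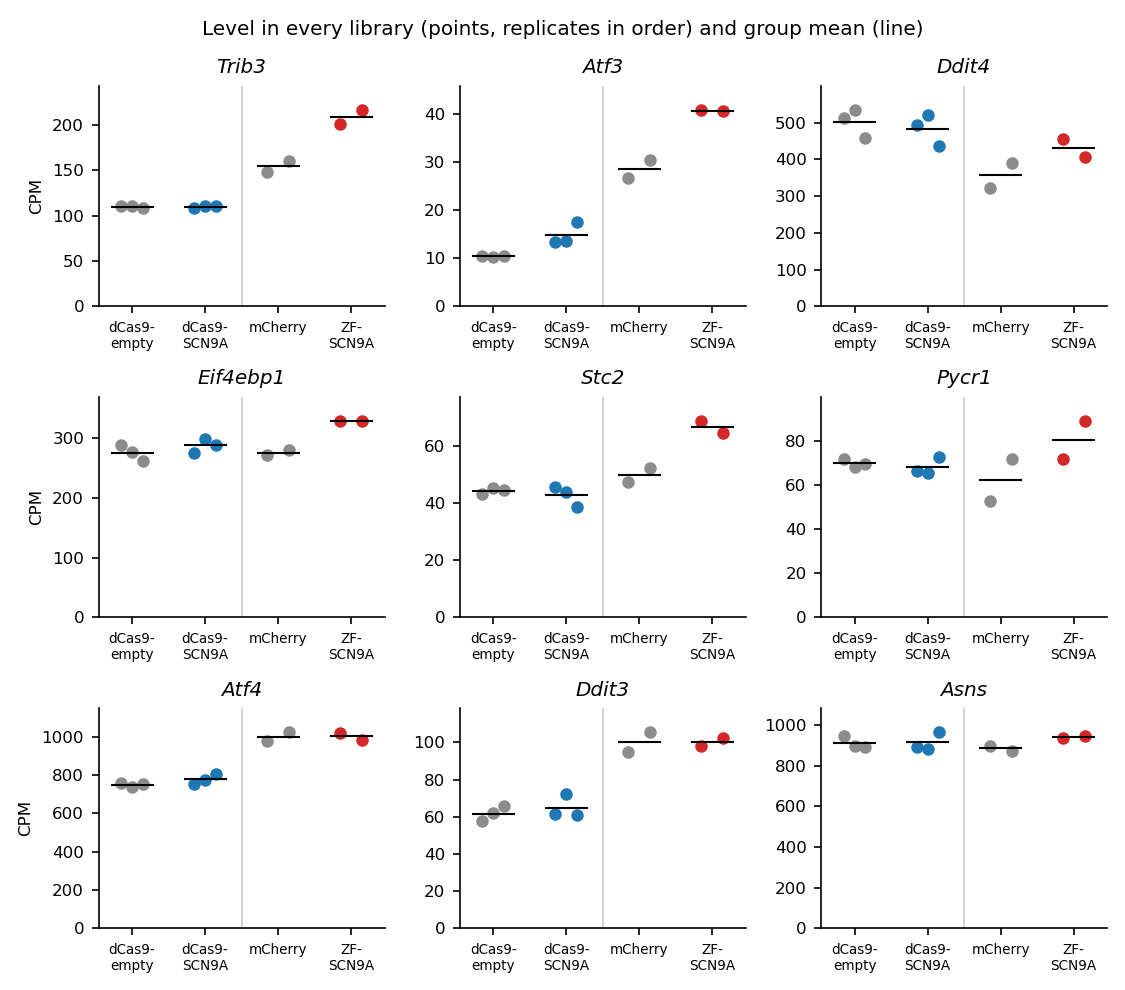
Level in CPM (vertical axis, from 0) of the 6 genes that rose with the zinc finger and of Atf4, Ddit3 and Asns; each point is a library, each line a group mean, and the 2 arms, scaled separately, are divided by a grey line. Both ZF-SCN9A libraries of Trib3, at 201 and 217 CPM, lie above the mCherry libraries, while the 6 dCas9 libraries lie between 108 and 111 CPM.

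The other tested stress response genes did not pass in either arm. Chac1, which degrades glutathione and is among the most sensitive ATF4 targets known, read 66.3, 62.6 and 69.7 CPM in dCas9-empty and 69.0, 68.5 and 76.3 CPM in dCas9-SCN9A. With mCherry it read 77.7 and 88.7 CPM and with ZF-SCN9A 84.4 and 90.3 CPM. Its groups overlapped in both arms, at log2 fold changes of 0.11 and 0.06. Cebpb, a C/EBP partner of ATF4, had the lowest value of these genes with dCas9, from 21.04, 23.8 and 23.5 to 20.4, 19.9 and 21.1 CPM (-0.16 ± 0.08, SE, adjusted p = 0.562 by edgeR). With the zinc finger it read 19.1 and 17.8 CPM against 20.1 and 21.1 CPM, without overlap, at 0.16 ± 0.17 (SE, adjusted p = 0.728 by edgeR), and Tmem189 on the other strand overlaps 20.7% of its exon bases. Atf5, Cebpg, the leucine sensor Sesn2, the chromatin-associated Nupr1 and the phosphatase subunit Ppp1r15a lay between -0.01 and 0.07 with dCas9 and between 0.02 and 0.12 with the zinc finger. Vldlr, a lipoprotein receptor, had 12 reads over the 6 dCas9 libraries and 1 over the 4 others, and was not tested.

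In amino acid synthesis, Pycr1 alone passed, with the zinc finger. Pycr1 makes proline in mitochondria. It read 52.7 and 72.0 CPM with mCherry and 71.9 and 89.2 CPM with ZF-SCN9A, 0.35 ± 0.10 higher on the log2 scale (SE, adjusted p = 0.0142 by edgeR). Here the groups overlapped, since mCherry replicate 2 stood level with ZF-SCN9A replicate 1. Without mCherry replicate 1 the log2 fold change was 0.15 (adjusted p = 0.698), without ZF-SCN9A replicate 2 it was 0.20 (adjusted p = 0.606), and without mCherry replicate 2 it was 0.60 (adjusted p = 4.4e-05). With dCas9 it read 71.8, 68.3 and 69.4 CPM against 66.5, 65.5 and 72.9 CPM, which overlapped.

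Asns, which makes asparagine and is a classical ATF4 target, did not pass. It read 946, 896 and 894 CPM in dCas9-empty and 892, 883 and 967 CPM in dCas9-SCN9A, and 897 and 873 CPM with mCherry against 936 and 946 CPM with ZF-SCN9A. The zinc-finger groups did not overlap but were close, at a log2 fold change of 0.09 (95% interval -0.03 to 0.21), and with dCas9 it was 0.00 (-0.12 to 0.13). Psat1, the aminotransferase of the serine pathway, read 483 and 471 CPM with mCherry and 506 and 506 CPM with ZF-SCN9A (0.09). In dCas9-empty it read 512, 455 and 455 CPM and in dCas9-SCN9A 448, 438 and 495 CPM, the lowest log2 fold change of these enzymes in that arm at -0.04. Its dCas9 groups overlapped, and its zinc-finger groups did not. Shmt2, which passes a carbon unit from serine to folate in mitochondria, read 405 and 420.3 CPM with mCherry and 462 and 464 CPM with ZF-SCN9A (0.16 ± 0.06, SE, adjusted p = 0.115 by edgeR). With dCas9 it read 382, 349 and 367 CPM against 391, 375 and 412 CPM (0.10). Psph, the phosphatase of the serine pathway, had the lowest value of these enzymes with the zinc finger (-0.01), with overlapping groups at 95.6 and 75.6 CPM against 88.3 and 80.4 CPM. Phgdh, which opens the serine pathway, Mthfd2, of the mitochondrial folate cycle, and Aldh18a1, of proline synthesis, lay between 0.09 and 0.14 with the zinc finger and between -0.02 and 0.00 with dCas9.

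Of the 3 transport genes 0 passed in either arm by edgeR, DESeq2 or limma-voom, and 0 had an unadjusted p under 0.05. Slc7a11, the cystine importer, read 76.2, 69.2 and 74.1 CPM in dCas9-empty and 77.2, 73.2 and 81.4 CPM in dCas9-SCN9A, and 77.2 and 73.7 CPM with mCherry against 81.1 and 72.4 CPM with ZF-SCN9A. Its groups overlapped in both arms, at 0.08 and 0.03. Slc7a5, the importer of leucine and other large amino acids, read 1271 and 1220.0 CPM with mCherry and 1357 and 1329 CPM with ZF-SCN9A, which did not overlap (0.11 ± 0.06, SE, adjusted p = 0.360 by edgeR). With dCas9 it read 1006, 907 and 951 CPM against 891, 837 and 965 CPM (-0.09). Slc3a2, the heavy chain that both importers need, stood at 0.06 in both arms.

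The 12 synthetases, which load amino acids onto their transfer RNAs in the cytosol, held 0 genes that passed in either arm by edgeR, DESeq2 or limma-voom. With a correction for exon length Eprs passed in the zinc-finger arm (0.18, adjusted p = 0.0499 by edgeR). At an unadjusted p under 0.05 there were 2 with the zinc finger, Sars and Lars, both higher, as were 7.78% of all tested genes. With dCas9 there were 0, where 10.1% of all tested genes stood. The zinc-finger log2 fold changes of the 12 synthetases ran from -0.10 in Iars to 0.15 in Sars. Iars read 321 and 305 CPM with mCherry and 282 and 301 CPM with ZF-SCN9A, and was the 1 gene of the set whose ZF-SCN9A libraries both lay below the controls. Sars read 565 and 578 CPM with mCherry and 619 and 653 CPM with ZF-SCN9A (0.15 ± 0.06, SE, adjusted p = 0.144 by edgeR). With dCas9 they ran from -0.08 in Wars (188, 169 and 173 against 164, 159 and 180.4 CPM) to 0.06 in Cars (127, 116 and 134 against 126, 119.7 and 146 CPM), and the groups of all 12 overlapped. The 95% intervals of the 12 genes lay within -0.20 to 0.21 with dCas9 and within -0.23 to 0.28 with the zinc finger. Summed over the 12 genes, the level was 4586 ± 144 CPM in dCas9-empty and 4522 ± 229.9 CPM in dCas9-SCN9A (SD, n = 3 each). It was 5756 ± 7.07 CPM with mCherry and 6028 ± 33.9 CPM with ZF-SCN9A (SD, n = 2 each).

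**Figure D3:**
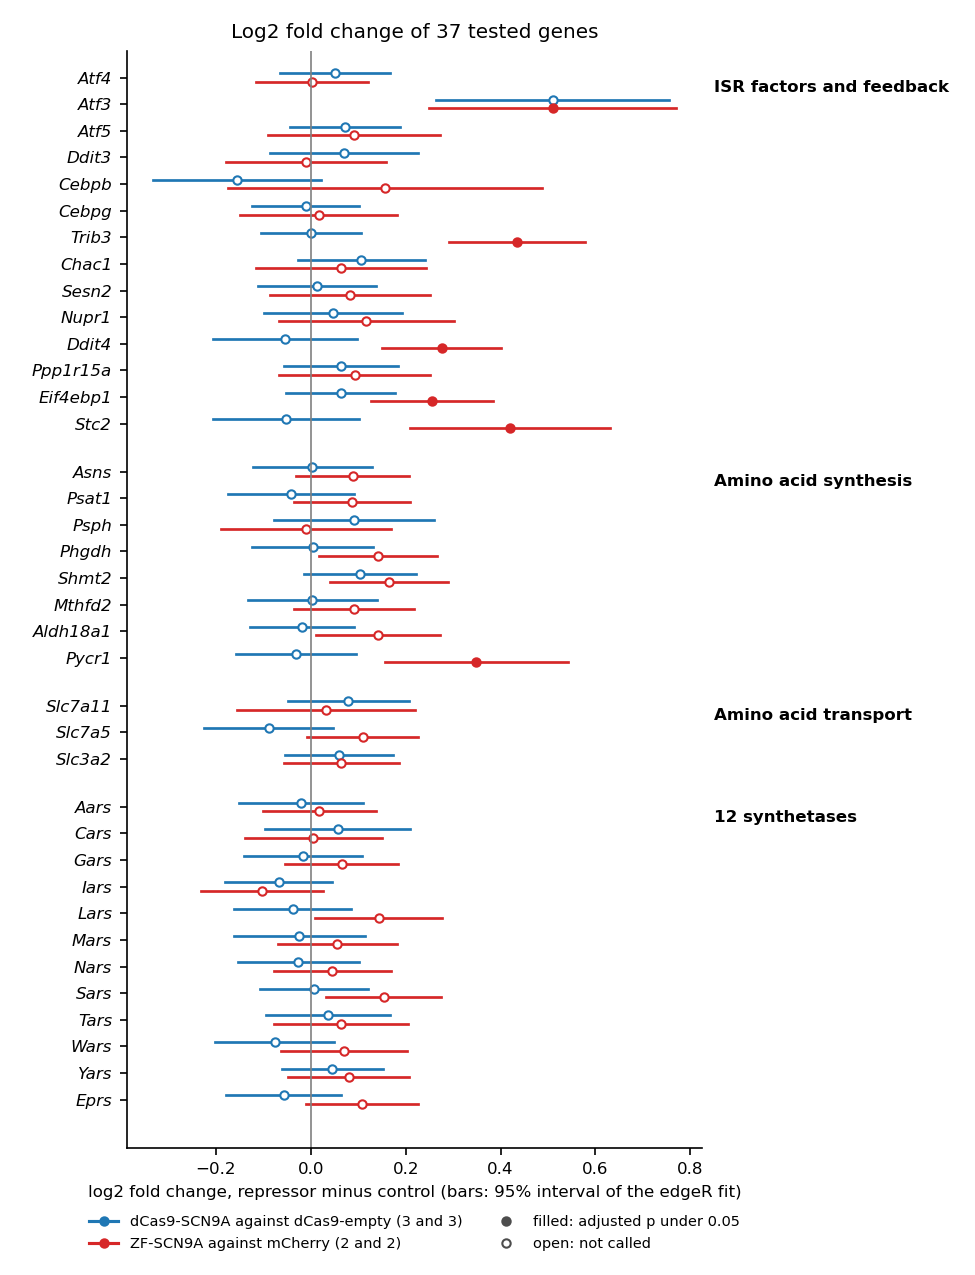
Log2 fold change of the 37 tested genes (horizontal axis) with its 95% interval from the edgeR fit, for dCas9-SCN9A against dCas9-empty (blue, 3 and 3 libraries) and ZF-SCN9A against mCherry (red, 2 and 2); filled points have an adjusted p under 0.05. The 6 filled points are all zinc-finger values above 0, and none is a synthetase.

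**Figure D4:**
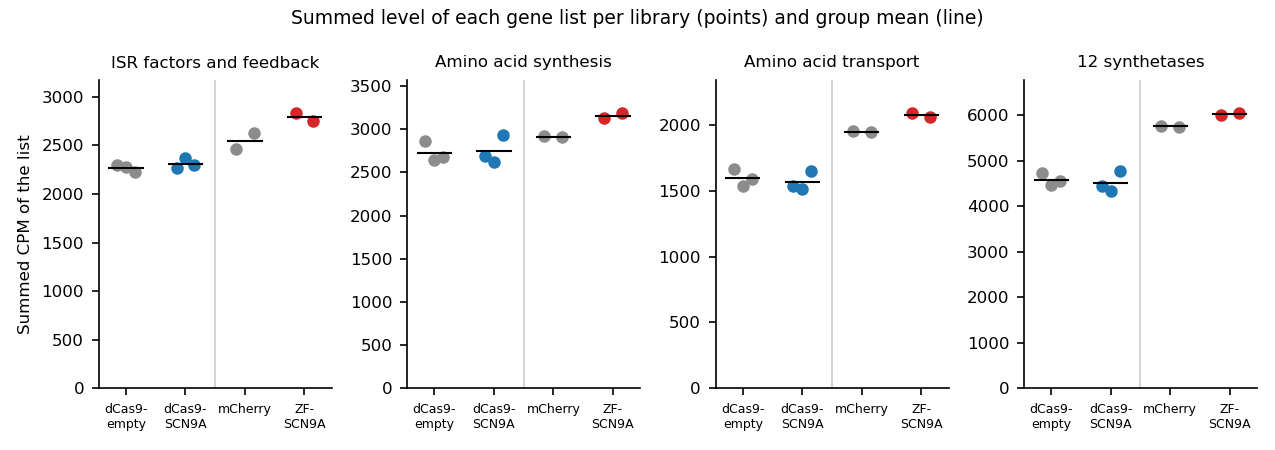
Summed CPM of each of the 4 gene lists (vertical axis, from 0) in every library (points) with group means (lines); the grey line divides the arms, which were scaled separately. Both ZF-SCN9A libraries lie above both mCherry libraries in all 4 lists, while the dCas9 groups overlap in all 4. Of the further lists below, other ATF4 targets (4903 to 4922 against 4715 to 4846 CPM) and other cytosolic synthetases (1864 to 1865 against 1810 to 1821 CPM) also lay higher with the zinc finger. The eIF2 list lay lower (1732 to 1748 against 1752 to 1786 CPM). Mitochondrial synthetases, the ATF6 and XBP1 branch and hypoxia genes overlapped in that arm. With dCas9, other ATF4 targets (3657 to 3735 against 3808 to 3864 CPM) and the eIF2 list (1527 to 1545 against 1551 to 1615 CPM) lay lower. The remaining further lists overlapped with dCas9.

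Across the set, 6 of 37 genes (16.2%) were called higher with the zinc finger, against 1.95% of all 12899 tested genes. Of the 37 genes 0 were called lower, against 2.78% of all genes. At an unadjusted p under 0.05, 11 (29.7%) were higher, against 7.78% of all genes. Of the 37 genes 34 had a log2 fold change above 0 (median 0.09), against 50.4% of all tested genes (median 0.00). The members were chosen with earlier results of these data known, so the shares in this paragraph describe the set and are not an independent test. Both ZF-SCN9A libraries lay above both controls in 22 genes (59.5%, against 23.3% of all genes) and below them in 1 of the 37 (against 22.3% of all genes). The genes were also measured more precisely than most, with a median SE of 0.07 against 0.13 for all genes. By role the calls were 5 of 14 stress response genes, 1 of 8 synthesis genes, 0 of 3 transport genes and 0 of 12 synthetases.

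With dCas9, edgeR called 0 of the 37 genes, against 0.0410% of 14628 tested genes. At an unadjusted p under 0.05 there was 1, Atf3, where 10.1% of all genes stood, and DESeq2 and limma-voom also called 0, where they called 0.191% and 0.0273% of all genes. The median log2 fold change was 0.00, 21 genes lay above 0 (51.7% of all genes did) and 16 below, and the set ranged from -0.16 (Cebpb) to 0.51 (Atf3). Of the differences between the arms 9 lay above 0 and 28 below, where 49.9% of all genes lay above. Besides Trib3, the genes Ddit4, Eif4ebp1, Stc2, Pycr1 and Slc7a5 had an unadjusted p under 0.05, as 10.9% of all genes did, but did not pass after adjustment.

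The zinc-finger calls rested on few libraries. For 88.0% of genes in that fit, Trib3, Atf3, Eif4ebp1 and Stc2 among them, the p-value used spread shared across genes and not the gene's own. Ddit4 and Pycr1 also rested almost wholly on shared spread, with 8931 and 4264 prior degrees of freedom beside 2 residual ones. DESeq2 called Trib3 alone of the 6 (adjusted p = 0.00238), where it called 1.20% of all genes, with adjusted p from 0.136 for Eif4ebp1 to 0.941 for Pycr1 for the others. Limma-voom called all 6 (4.78% of all genes), and 1 fit of all 10 libraries (2.21%) did not call Ddit4 or Pycr1. Without mCherry replicate 1 the calls of Atf3, Ddit4, Eif4ebp1, Stc2 and Pycr1 ended, and Ddit4 stood at 0.15 (0.42 without mCherry replicate 2). Without ZF-SCN9A replicate 1 those of Atf3, Ddit4 (0.19), Eif4ebp1 and Stc2 ended, and without ZF-SCN9A replicate 2 those of Atf3, Eif4ebp1 and Pycr1.

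Levels per kilobase of exon showed how the genes ranked within a group. The length was that of all annotated exons of a gene joined, 13922 bases for Slc7a11, and the ranking depends on it. In dCas9-empty, Asns (333 CPM per kilobase), Atf4 (318), Ddit4 (286), Slc7a5 (258) and Gars (231, the glycyl-tRNA synthetase) stood highest. Slc7a11 (5.26), Atf3 (4.84) and Vldlr (0.00913) stood lowest. With mCherry the highest were Atf4 (425 CPM per kilobase), Slc7a5 (336), Asns (324) and Gars (285), and the lowest tested were Slc7a11 (5.42), Stc2 (9.66), Cebpb (12.3) and Atf3 (13.3). In dCas9-empty the libraries of Asns and Atf4 span ranges, 327 to 346 and 313 to 322 CPM per kilobase, that do not overlap.

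Further genes of the pathway were counted list by list. Among 16 genes for eIF2 kinases, eIF2, its exchange factor eIF2B and regulators of both, 0 passed in either arm by edgeR, DESeq2 or limma-voom. By edgeR at an unadjusted p under 0.05, 1 was higher and 2 lower with the zinc finger. Of all 12899 tested genes 1003 were higher and 1084 lower. With dCas9 there was 1, where 10.1% of all tested genes stood. The 18 tested of 19 other ATF4 targets gave 2 higher and 1 lower with the zinc finger by edgeR (median 0.07), 3 higher and 1 lower by limma-voom, and 0 in either direction by DESeq2. Over all tested genes edgeR called 1.95% higher and 2.78% lower. Aldh1l2, a mitochondrial folate enzyme, rose from 166 and 202 to 232 and 235 CPM (0.34 ± 0.07, SE, adjusted p = 1.70e-04 by edgeR), with 14.1% of its exon bases shared with a gene on the other strand. The difference of Aldh1l2 between the arms passed (-0.48 ± 0.11, SE, adjusted p = 0.0157 by edgeR). Pck2, the mitochondrial PEP carboxykinase, rose from 149 and 165 to 193 and 177 CPM (0.24 ± 0.07, SE, adjusted p = 0.0319 by edgeR). Slc38a2, an amino acid importer that ATF4 is known to induce, fell from 714 and 572 to 482 and 446 CPM (-0.47 ± 0.06, SE, adjusted p = 3.32e-11 by edgeR), opposite to the other two. The 3 that passed did not all move one way.

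Synthetases outside the set also gave few calls with the zinc finger, where edgeR called 1.95% of all tested genes higher and 2.78% lower. Of 12 other cytosolic synthetases and scaffold proteins of the synthetase complex, Tarsl2, a paralog of Tars, fell from 41.4 and 41.8 to 15.2 and 14.5 CPM (-1.48 ± 0.15, SE, adjusted p = 2.25e-19 by edgeR). How reads that match both paralogs were counted is not given in the sources used here. Tars itself read 199 and 188 CPM with mCherry and 208 and 197 CPM with ZF-SCN9A, which overlapped. Of 17 mitochondrial synthetases Vars2, which loads valine, rose from 29.4 and 37.2 to 47.7 and 48.4 CPM (0.52 ± 0.12, SE, adjusted p = 0.00166 by edgeR), with 8.52% of its exon bases in an overlapping gene. Limma-voom called 1 mitochondrial synthetase and DESeq2 0, and both called 1 gene of the other cytosolic list lower. Of 13 genes of the ATF6 and XBP1 branch of the unfolded protein response, among them the chaperone Hspa5, 0 passed by edgeR, DESeq2 or limma-voom in either arm, with 0 at an unadjusted p under 0.05 with the zinc finger and 1 with dCas9. With dCas9, 0 genes of these 3 lists passed by any of the 3 tools. In each list 1 gene had an unadjusted p under 0.05 by edgeR, as 10.1% of all tested genes did.

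Hypoxia genes also rose with the zinc finger, as did Ddit4 and Stc2. Of 16 such genes 5 rose (Adm, Ankrd37, Ndrg1, Pdk1 and Hk2) and 0 fell by edgeR, where 1.95% of all tested genes were called higher. Limma-voom called 5 higher and DESeq2 2. The median was 0.16, and 15 of the 16 lay above 0, where 50.4% of all genes did. Adm, the vasodilator adrenomedullin, rose from 9.94 and 15.8 to 31.8 and 27.5 CPM (1.20 ± 0.17, SE, adjusted p = 1.70e-10 by edgeR). Ndrg1 rose from 33.3 and 45.8 to 67.8 and 54.0 CPM (0.63 ± 0.11, SE, adjusted p = 5.51e-06 by edgeR). In both genes mCherry replicate 1 was the lowest library, as it was in all 6 members called with the zinc finger. The summed level of the 16 genes ran from 5771 to 6604 CPM with mCherry and from 6375 to 6620.0 CPM with ZF-SCN9A, which overlapped. Of 13 tested neuroblast markers 5 changed, with Dbh and Chga higher and Gata2, Hand2 and Isl1 lower, as did Col1a1 among the fibroblast markers (from 3.21 and 2.97 to 7.12 and 5.67 CPM, on 21, 22, 45 and 25 reads), where 4.72% of all tested genes passed. Limma-voom called 2 neuroblast markers higher and 3 lower, and DESeq2 0 higher and 1 lower. Neither called a fibroblast marker. The part of these changes in the stress response values was not tested.

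**Figure D5:**
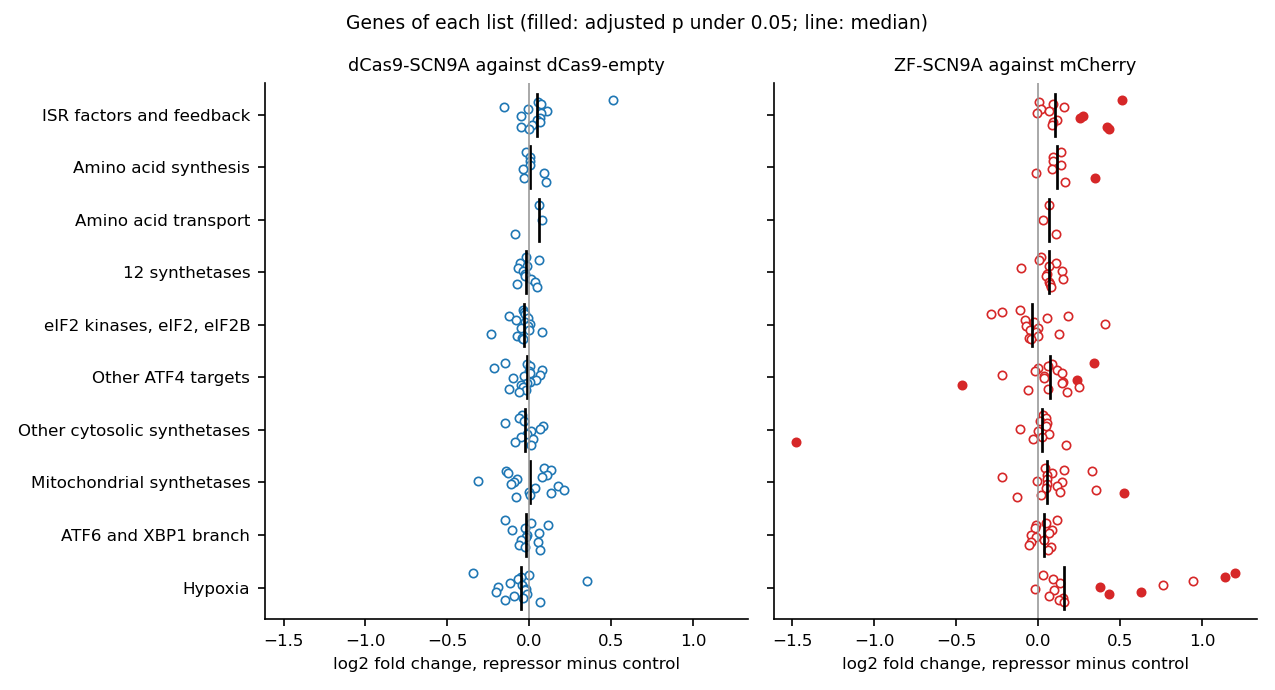
Log2 fold change (horizontal axis) of each tested gene in the 4 member lists and 6 further lists, with dCas9 on the left and the zinc finger on the right; filled points have an adjusted p under 0.05 and black lines are list medians. With dCas9 no point is filled, and with the zinc finger the filled points lie on both sides of 0, with Tarsl2 at -1.48 and Ankrd37 at 1.14.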

How the data were processed

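The submitters' processing notes name the demultiplexer bcl2fastq (2.20), the aligner STAR (2.7.3a), DESeq2 and the build GRCm38; the sources used here do not give the annotation release or how reads were counted. What the authors deposited are whole-number counts per gene, laid out as STAR writes them. The unstranded column was used, and 2 strand columns per library were left out. Strand was thus not used to place reads where genes overlap on opposite strands. Whether such reads were counted or left out is not given. Entries that name no gene (24.99% to 28.24% of reads) and 4 plasmid entries did not enter library sizes or tests. Symbols came from GENCODE M21 (55141 of 55401 identifiers). Ddit3 and Aldoa have 2 identifiers each, and the one with more exon bases was used. Promoter sequences are from RefSeq.

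Each repressor was compared with its control by the quasi-likelihood test of edgeR 4.0.16 (with limma 3.58.1 in R 4.3.3) after TMM scaling and filterByExpr (minimum count 10), fitted robustly, two-sided, Benjamini-Hochberg adjusted over all genes tested, called at an adjusted p under 0.05. The repressors were compared as a contrast over all 10 libraries. The SE and 95% intervals come from these fits. CPM were computed with TMM-scaled library sizes of each arm. Residual degrees of freedom were 4 (dCas9) and 2 (zinc finger). Scripts were tested on simulated data. Alternatives were DESeq2 1.42.0, limma-voom, other filters and scalings, an exon length correction, the replicate number as a block, all 10 libraries in 1 fit, and each library left out. All replicate pairs differed by more than sampling noise.

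The members and lists were chosen with earlier results of these data known. Genes given library by library were those called in any comparison, 7 set genes (Atf4, Ddit3, Atf3, Asns, Trib3, Chac1 and Slc7a11), and those with the highest and lowest log2 fold change of each list. From the other lists, genes called were named.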

Additional observations from a re-analysis of the deposited data

Results flagged for a closer look

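The change of Trib3 differed between the arms in the test of the difference over all 10 libraries. The difference was -0.43 ± 0.09 (SE, dCas9 minus zinc finger, adjusted p = 0.00762 by edgeR). The arms differed in control plasmid and library depth as well as in repressor, and these cannot be told apart here. Trib3 was higher in 2 of 2 ZF-SCN9A libraries than in either mCherry library, and its dCas9 groups overlapped.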

How the results depend on the processing

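With dCas9 the count of all genes called was 6, and 172 without a filter, 28 with DESeq2, 29 with all 10 libraries in 1 fit, 262 with the replicate block, 95 with the replicate block and exon length correction, 2 with exon length correction, and 1 to 34 without each library. The count of members called was 0, and 1 without a filter, with all 10 libraries, with the replicate block and with the replicate block and exon length correction. That gene was Atf3 each time (adjusted p = 0.0056 to 0.0475, log2 fold change 0.47 to 0.51), and the count was 0 without each library. With the zinc finger the count of all genes was 609, and 128 with DESeq2, 348 with all 10 libraries and 201 to 787 without each library. The 6 members were 1 with DESeq2 and 1 to 6 without each library; with all 10 libraries the calls of Ddit4 and Pycr1 ended, without a filter that of Pycr1 (adjusted p = 0.0522), and with the replicate block that of Ddit4, while Shmt2 passed. With exon length correction Eprs passed (0.18, adjusted p = 0.0499), which gave 7 members, and with the replicate block and exon length correction both Eprs (adjusted p = 0.00084) and Sars (0.15, adjusted p = 0.0261) passed, which gave 8. For the difference between the repressors the count of all genes was 143, and 274 without a filter, 429 with the replicate block, 474 with the replicate block and exon length correction and 71 to 241 without each library. The 1 member was 3 without a filter, 4 with the replicate block, 4 with the replicate block and exon length correction (Trib3, Ddit4, Stc2 and Pycr1 in both), and 0 to 2 without each library. None of the 6 called members changed sign in any alternative run, while 8 of 37 members did at least once with the zinc finger and 21 of 37 with dCas9. With the zinc finger 31 to 35 members lay above 0 across the alternatives. Where counts moved, the cause was not tested.

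Replicate numbers are not stated to pair samples. Deviations of same-numbered dCas9 libraries from their group means correlated across genes at 0.261, 0.228 and 0.048, and those of the zinc-finger arm at 0.073; 5 of the 6 dCas9 libraries correlated best with their own number, the exception being dCas9-empty replicate 3. In the zinc-finger arm, with 2 libraries a group and 4.41 M to 7.48 M gene counts, the median SE of the members was 0.07 beside a median change of 0.09. A member that did not pass is not shown to be unchanged.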
